A study of Mus musculus with 2 samples.

Results

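The genes described here are Ptf1a, Pax2, Pax3, Lhx1, Lhx5, Skor1, Skor2, Tfap2a and Tfap2b, the transcription factors and corepressors that mark GABAergic fate in the cerebellar ventricular zone. They were found by symbol among the genes counted in single nuclei, and all 9 of 9 were present among 32285 genes. Nuclei came from whole cerebella of mice of both sexes at postnatal day 1, and were read by droplet-based single-nucleus RNA sequencing of the 3′ ends of transcripts. There were 2 libraries, each made from 12 pooled cerebella. The control library came from littermates without Cre that carried floxed Tox3 (Tox3f/f by the genotype label, Tox3f/f or Tox3f/+ by the library description), and the cKO library from Nestin-cre;Tox3f/f mice. Nestin-Cre drives recombination in neural precursors, so neurons and glia alike descend from recombined cells. Because each group is 1 library, a difference between the libraries has no replicate behind it, and no p-value is given. The intervals in parentheses are exact 95% intervals, and they cover counting error only.

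GABAergic neurons of the cerebellum arise from the ventricular zone, where the bHLH factor Ptf1a specifies the lineage. Purkinje cells leave the zone early and switch on Lhx1, Lhx5 and the corepressor Skor2, whereas interneuron precursors express Pax2, keep dividing in the prospective white matter and settle in the cortex after birth. The AP-2 factors Tfap2a and Tfap2b act in GABAergic lineages downstream of Ptf1a. Pax3 is a paired-box factor of dividing neural precursors, and Skor1 is the paralog of Skor2.

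The nuclei were sorted into classes by marker lists that held none of the 9 genes. The GABAergic interneuron-like class held 241 control and 560 cKO nuclei, and the Purkinje-like class held 285 and 730. The GABAergic progenitor-like class (137 and 313 nuclei) had to be taken from a graph cluster rather than from single nuclei, because nuclei of that cluster carried a mean of 0.669 UMIs (unique molecule counts) of the progenitor markers. Of the progenitor list, Dll1, Kirrel2, Neurog2 and Sox2 were enriched in this cluster, beside 6 of 9 interneuron markers, and 42 of the cluster's 535 nuclei passed the interneuron list and were counted there. The progenitor list was not particular to this cluster: astroglia cluster 12 had 6 of its markers enriched, oligodendrocyte cluster 16 had 5, and the unnamed low-depth clusters 1 and 5 had 7 and 5. The members were kept out of the genes used for clustering. However, their antisense neighbours were not, and the genes that led this cluster included Gm20395, Gm26688 and the members Pax2, Tfap2b, Tfap2a, Pax3 and Skor1. The high level of these members in the class is therefore a description of it.

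The control library held 4857 nuclei with a median of 4072 UMIs and the cKO library 6946 with a median of 4161.5. After removal of doublets and nuclei rich in mitochondrial transcripts, 4667 and 6555 were kept. Before this removal, nuclei with under 1000 genes made up 21.4% of the control nuclei and 10.5% of the cKO nuclei. There were 9 barcodes that occurred in both libraries. Tox3 itself was not lower in the library labelled cKO (103.8 against 118.4 CPM, UMIs scaled to a sum of 1e+06 per class; ratio 1.14, 1.08 to 1.2). Counts over the whole gene do not separate reads of the deleted segment from other reads, so Tox3 could not check the label. What lay behind these Tox3 levels was not tested. Microglia and macrophages in clusters of their own (52 and 151 nuclei, median 2918 and 2536 UMIs) gave the level of free RNA, since they should lack these factors. There the members held between 0 and 7 UMIs each, with 29.6 and 13.9 CPM for Pax3, 23.7 and 16.2 CPM for Lhx1, and at most 16.2 CPM for each of the others. The 0 counts of the control microglia have an exact upper limit of 21.8 CPM.

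Promoter windows are shown for the 3 members with a single RefSeq start, because these bear on the link from Ptf1a to its targets. Each line gives the 250 bases upstream of the start, 5′ to 3′ on the gene's strand, from RefSeq on GRCm38.p6. Capitals mark a match to the RBPJ core TGGGAA (Ptf1a) or to the E-box CANNTG (Tfap2b), and the Lhx1 window held no match.
Ptf1a, chr2:19445413-19445662, plus strand: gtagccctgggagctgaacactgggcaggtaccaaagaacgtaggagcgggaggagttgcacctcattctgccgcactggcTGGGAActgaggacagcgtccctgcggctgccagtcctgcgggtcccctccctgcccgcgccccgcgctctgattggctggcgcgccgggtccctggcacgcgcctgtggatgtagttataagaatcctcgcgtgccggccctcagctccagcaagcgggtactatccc
Lhx1, chr11:84525535-84525784, minus strand: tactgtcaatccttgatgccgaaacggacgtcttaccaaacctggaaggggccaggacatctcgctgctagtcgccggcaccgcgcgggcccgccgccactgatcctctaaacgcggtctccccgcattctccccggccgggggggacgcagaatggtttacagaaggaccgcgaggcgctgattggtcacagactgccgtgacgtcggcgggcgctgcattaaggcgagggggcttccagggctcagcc
Tfap2b, chr1:19211804-19212053, plus strand: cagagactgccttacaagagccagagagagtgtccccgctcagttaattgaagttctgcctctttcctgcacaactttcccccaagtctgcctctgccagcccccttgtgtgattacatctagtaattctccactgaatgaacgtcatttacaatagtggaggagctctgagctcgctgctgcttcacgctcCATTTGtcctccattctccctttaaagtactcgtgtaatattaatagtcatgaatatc
Windows were found for 6 of the 9 members, 11 windows in all, and Pax3, Lhx5 and Skor2 had none. On both strands, CANNTG lay in 3 of the 11 windows against 66.2% of all 32851 windows, TGGGAA in 3 against 21.6%, and the AP-2 motif GCCNNNGGC in 1 against 13.7%. These matches describe the letters and say nothing of binding. The Tfap2b window lies inside the longer annotated gene, in an intron of its longer transcripts.

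Ptf1a, the factor that specifies the lineage (ENSMUSG00000026735, chromosome 2, 19445663 to 19447501, plus strand), was close to the floor at this age. It had 24 UMIs in 4667 control nuclei and 31 in 6555 cKO nuclei. The progenitor-like class held 2 and 4 of them, a level of 3.53 CPM (0.428 to 12.8) and 3.84 CPM (1.04 to 9.82). Astroglia in clusters of their own stood at the same level, with 4.38 CPM (1.61 to 9.54) and 4.11 CPM (2.12 to 7.18). No Ptf1a UMI was found in 241 control interneuron-like nuclei, which at 3 nuclei of the total allows a share of up to 1.24% with a UMI. A progenitor-like level of Ptf1a above that of astroglia was thus not detectable at this depth. In cKO the interneuron-like level, from 1 UMI, was 0.088 (0.0018 to 0.889) of the progenitor-like level, and Purkinje-like nuclei held 0 UMIs (ratio interval up to 0.273), while in control both intervals included 1. Its antisense neighbour Ptf1aos had 0 and 7 UMIs.

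Pax2, the marker of interneuron precursors (ENSMUSG00000004231, chromosome 19, 44756045 to 44837871, plus strand), was concentrated in the progenitor-like and interneuron-like classes. Its level in progenitor-like nuclei was 1189 CPM (1101 to 1283) in control and 1396 CPM (1325 to 1469) in cKO, and 86.1% and 89.8% of these nuclei held a UMI. In interneuron-like nuclei it was 893 CPM (845 to 943) and 857 CPM (824 to 891), or 0.75 (0.68 to 0.82) and 0.61 (0.58 to 0.66) of the progenitor-like level. For the whole class, the order in both libraries was therefore progenitor-like above interneuron-like, with intervals that did not overlap. Dividing nuclei of the progenitor-like class, set apart below, held 748 CPM (640 to 869) in control and 933 CPM (829 to 1046) in cKO. In control they were thus not above interneuron-like nuclei. Pax2 was among the genes that led the progenitor-like cluster, so the order is a description. Purkinje-like nuclei held 29.1 and 18.0 CPM and the granule lineage 5.68 and 8.47 CPM. Some other classes were above these, with 68.3 and 77.4 CPM in the oligodendrocyte lineage. All nuclei gated as microglia and macrophages held 96.4 and 23.2 CPM, and those gated as endothelial 0 and 190 CPM (30 UMIs). The interneuron-like and progenitor-like classes together took 48.8% and 25.2% of all Pax2 UMIs in control, and 48.7% and 27.9% in cKO. With each nucleus thinned to 1000 UMIs, 63.2% and 67.3% of progenitor-like nuclei kept a Pax2 UMI against 54.9% and 53.9% of interneuron-like nuclei.

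Pax3 (ENSMUSG00000004872, chromosome 1, 78101267 to 78197134, minus strand) was highest in astroglia. Astroglia in clusters of their own held 998 CPM (946 to 1052) in control and 945.5 CPM (911 to 981) in cKO, with a UMI in 94.5% and 89.4% of nuclei. Progenitor-like nuclei were the next of the neural classes, with 620.3 CPM (557 to 689) and 563 CPM (518 to 610.4), or 0.68 (0.604 to 0.767) and 0.61 (0.560 to 0.670) of the 910.3 and 919 CPM of all nuclei that passed the astroglial list. The small class of fibroblasts and mural cells (21 and 31 nuclei, 18 of the 52 in a cluster of that name) held 681 CPM (541 to 845) and 440.5 CPM (345 to 555). Interneuron-like nuclei (31.5 and 14.5 CPM) and Purkinje-like nuclei (24.4 and 10.0 CPM) lay within the interval of the microglial background of 29.6 CPM (9.61 to 69.0) in control. Astroglia of the marker gate took 51.5% and 63.2% of all Pax3 UMIs and the progenitor-like class 13.0% and 13.1%.

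Lhx1, a LIM-homeodomain factor of postmitotic Purkinje cells (ENSMUSG00000018698, chromosome 11, 84518284 to 84525535, minus strand), was highest in Purkinje-like nuclei among the classes. Its level there was 188 CPM (172 to 205) in control and 233 CPM (221 to 246) in cKO, with a UMI in 75.8% and 74.5% of nuclei. Progenitor-like nuclei were the next of the neural classes, with 139.6 CPM (111 to 174) and 156 CPM (133 to 182). The Purkinje-like level was 1.34 times (1.06 to 1.73) and 1.49 times (1.26 to 1.76) as high as the progenitor-like level. The small class gated as endothelial held 13.2 CPM (2 UMIs) in control and 190 CPM (30 UMIs) in cKO. The progenitor-like share with a UMI was 32.1% and 31.3%. Interneuron-like nuclei were lower again, at 45.8 and 54.4 CPM. The granule lineage held 79.6 CPM (71.9 to 87.9) and 66.8 CPM (59.3 to 75.1), so Lhx1 RNA was not confined to GABAergic classes. Single granule clusters came near or above the Purkinje-like level, with values given below. The Purkinje-like class took 32.6% of all Lhx1 UMIs in control and 52.6% in cKO, and the granule lineage 24.8% and 11.1%.

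Lhx5, the partner of Lhx1 in Purkinje cell differentiation (ENSMUSG00000029595, chromosome 5, 120431699 to 120441223, plus strand), differed from Lhx1 in that Purkinje-like nuclei were the lowest of the 3 GABAergic classes. Progenitor-like nuclei held 196 CPM (161 to 236) in control and 199 CPM (172 to 228) in cKO. Interneuron-like nuclei held 46.5 CPM (36.1 to 59.0) and 47.9 CPM (40.4 to 56.5), and Purkinje-like nuclei 23.7 CPM (18.3 to 30.2) and 20.2 CPM (16.7 to 24.2). Each step down exceeded the counting intervals in both libraries. Skor1 (ENSMUSG00000022245, chromosome 9, 63138170 to 63148961, minus strand) had the same order, with 194 and 191 CPM in progenitor-like, 30.1 and 35.1 CPM in interneuron-like and 14.2 and 13.5 CPM in Purkinje-like nuclei.

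Skor2 (ENSMUSG00000091519), the corepressor required for Purkinje cell differentiation, was found mostly in Purkinje-like nuclei. They held 183 CPM (168 to 200.2) in control and 185 CPM (174 to 196) in cKO, and 71.2% and 66.4% of them had a UMI. The progenitor-like class held 0 UMIs in control and 3 in cKO, and the interneuron-like class 0 and 5. For control, 0 of 137 progenitor-like nuclei allows a share of up to 2.19% by the same floor. Purkinje-like nuclei took 89.0% and 87.6% of all Skor2 UMIs. In cKO, 16 UMIs in 5 of 20 nuclei gated as endothelial (101 CPM) and 11 in 5 of 31 gated as fibroblasts and mural cells (67.3 CPM) were the exceptions, and none of the gated endothelial nuclei lay in a cluster of that name. The paralogs Skor1 and Skor2 thus lay at opposite ends of the GABAergic classes.

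Tfap2a (ENSMUSG00000021359, chromosome 13, 40715302 to 40738376, minus strand) was graded over the GABAergic classes. Progenitor-like nuclei held 428 CPM (376 to 485) in control and 401 CPM (363 to 441) in cKO. Interneuron-like nuclei held 167 CPM (147 to 189) and 125 CPM (113 to 139), or 0.39 and 0.31 of that, and Purkinje-like nuclei 83.7 CPM (73.2 to 95.2) and 55.9 CPM (50 to 62.4). Its paralog Tfap2b (ENSMUSG00000025927, chromosome 1, 19208914 to 19238576, plus strand) stayed high in interneurons and dropped in Purkinje cells. Tfap2b was 797 CPM (725 to 874) and 725 CPM (674 to 779) in progenitor-like nuclei, 453 CPM (419 to 489) and 512 CPM (487 to 539) in interneuron-like nuclei, and 22.6 and 21.9 CPM in Purkinje-like nuclei. In control, Purkinje-like nuclei held 62 Tfap2b UMIs and microglia 0, and the lower limit of their ratio was 1.003. In cKO the Purkinje-like Tfap2b level was close to that of the cKO microglia (16.2 CPM, 6.51 to 33.4), with a ratio of 1.35 (0.639 to 3.44). Tfap2a over all Purkinje-like nuclei was far above its level in the same microglia (4.63 CPM, 0.560 to 16.7). That held for Purkinje-like graph cluster 6 (138 and 93.9 CPM), while cluster 10 was near the microglial level (5.40 and 5.37 CPM).

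**Figure D1:**
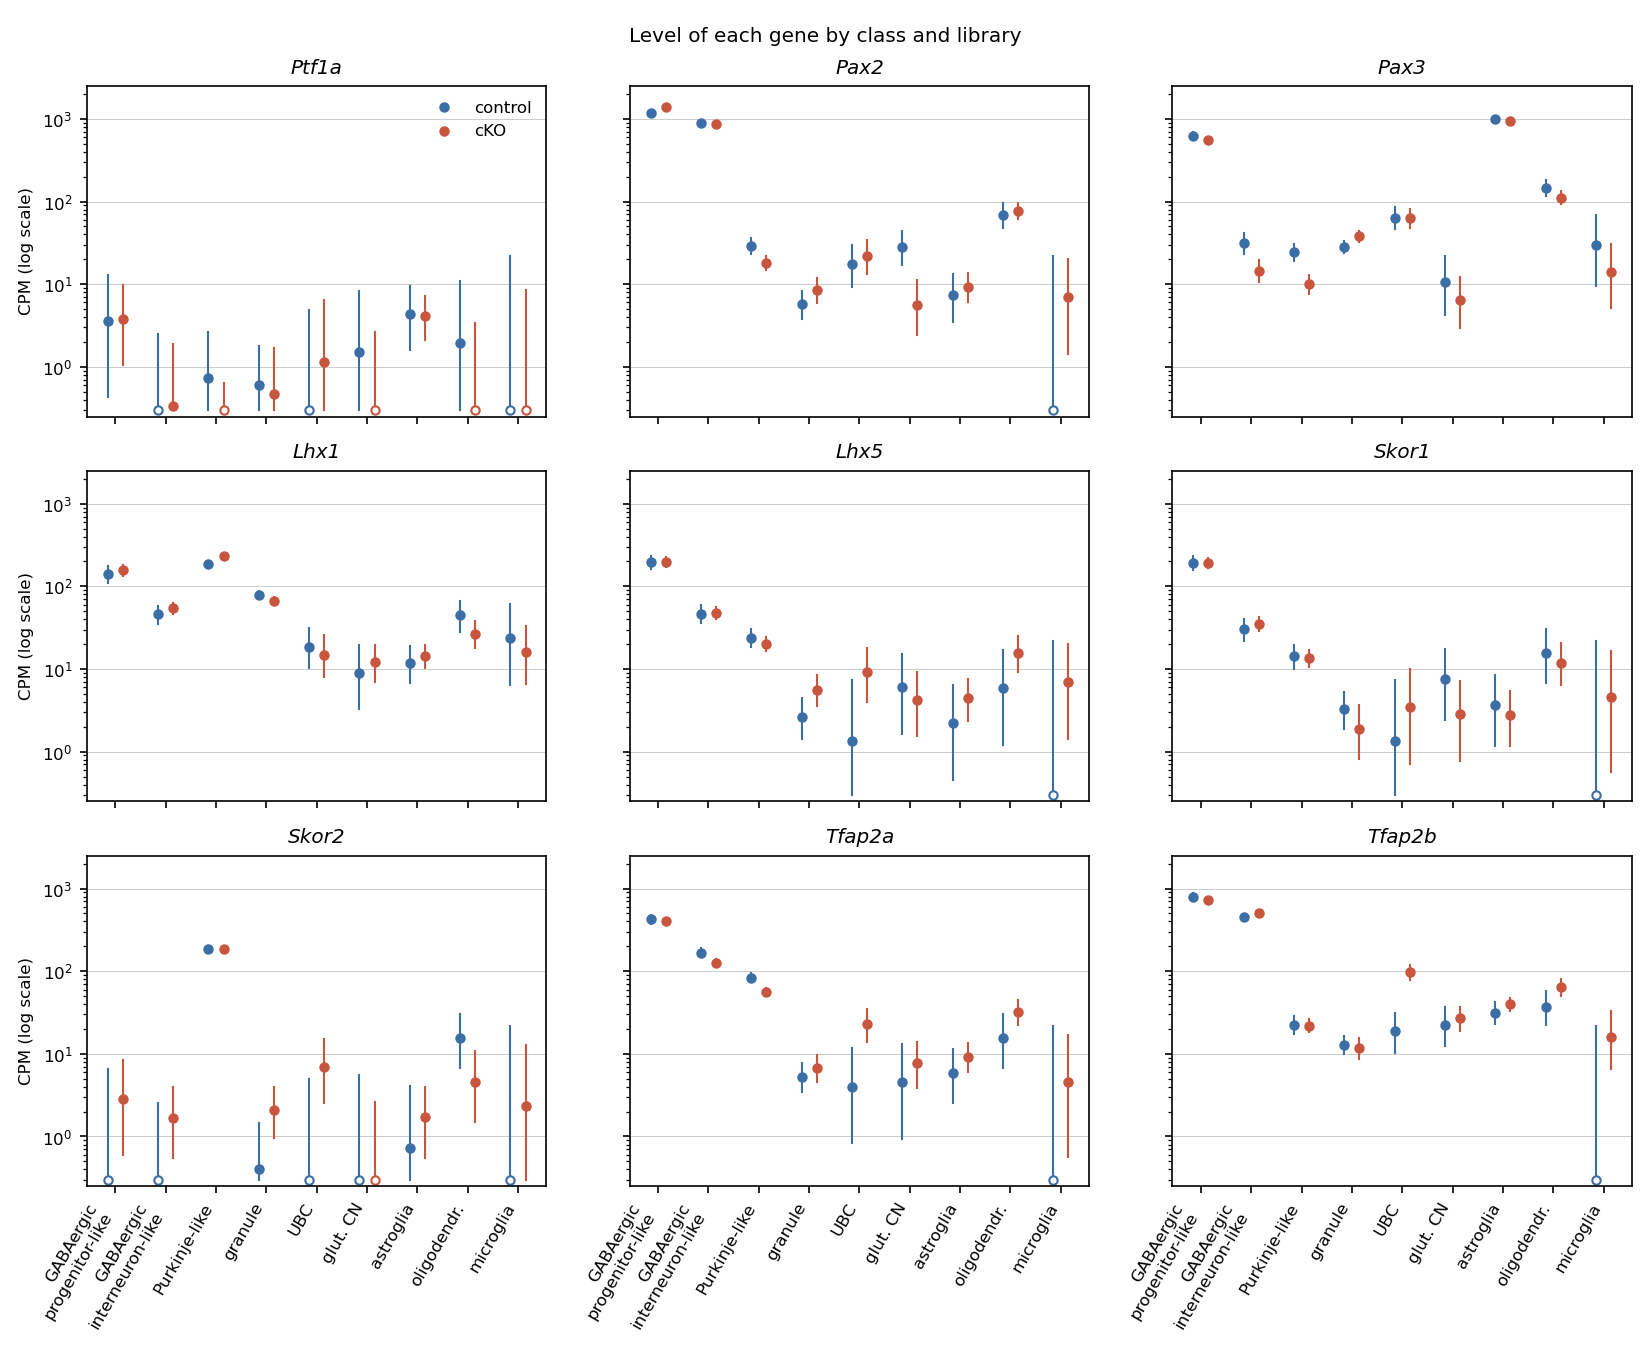
Level of each of the 9 genes (vertical axis, CPM on a log scale) in 9 classes of nuclei (horizontal axis) for the control library (blue) and the library labelled cKO (red). Points are UMI sums scaled to CPM, bars are exact 95% counting intervals, and open points at the bottom mark 0 UMIs. Skor2 stands at 183 and 185 CPM in Purkinje-like nuclei and at most at 15.6 CPM in the other classes drawn, and Pax3 is highest in astroglia, at 998 and 945.5 CPM.

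Several of these genes overlap genes on the other strand, and whether counting used strand is not given in the sources used here. Pax2 overlaps Gm20395 (813 and 1493 UMIs) and 1700039E22Rik (370 and 688). Tfap2a overlaps Gm26688 (1869 and 3268 UMIs), and Lhx5 overlaps Gm27199 (351 and 559). Reads of these pairs cannot be told apart if strand was not used.

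The members were found together in single nuclei of the progenitor-like class. A median of 5 of the 9 genes had a UMI in a control nucleus and 4 in a cKO nucleus, and 91.2% and 85.3% of nuclei had at least 3. The median was 3 and 3 in interneuron-like nuclei, and 2 and 2 in Purkinje-like nuclei, although the latter were the deepest (median 9003 and 7729.5 UMIs against 3852 and 3130). Tfap2a and Tfap2b were both seen in 96 of 137 control and 168 of 313 cKO progenitor-like nuclei. Singly, Tfap2a was seen in 114 and 210 of these nuclei and Tfap2b in 114 and 244. Lhx1 and Skor2 shared Purkinje-like nuclei, with both seen in 166 of 285 and 395 of 730. This was 81.8% and 81.4% of the nuclei with Skor2, and 76.9% and 72.6% of those with Lhx1. Singly, Lhx1 was seen in 216 and 544 of all Purkinje-like nuclei and Skor2 in 203 and 485. Whether either pair was seen together more often than these single counts give was not tested.

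Within the progenitor-like class, dividing nuclei were set apart by at least 2 UMIs of Mki67, Top2a, Cenpf, Cenpe, Kif11 and Aspm, genes of the late cell cycle (41 of 137 control and 77 of 313 cKO nuclei). Pax2 was lower in dividing nuclei, with 748 against 1486 CPM in control (ratio 0.504, 0.421 to 0.600) and 933 against 1596 CPM in cKO (0.585, 0.513 to 0.665). Pax3 went the other way, with 968 against 387 CPM (2.5, 2.01 to 3.13) and 841 against 443 CPM (1.90, 1.61 to 2.24). Tfap2b was also higher in dividing nuclei, at 1039 against 635 CPM (1.64, 1.35 to 1.98) and 866 against 664 CPM (1.31, 1.12 to 1.52). These 3 genes kept their direction in both libraries with intervals that left out 1. Lhx1 had 1.13 (0.699 to 1.80) in control and 1.74 (1.26 to 2.40) in cKO, Tfap2a 0.792 (0.601 to 1.04) and 0.794 (0.632 to 0.993), and the intervals of Lhx5 and Skor1 included 1 in both. All but 1 of the 6 Ptf1a UMIs of the class were in dividing nuclei. The split is by nuclei of 1 library each, so it is a description of these libraries.

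**Figure D2:**
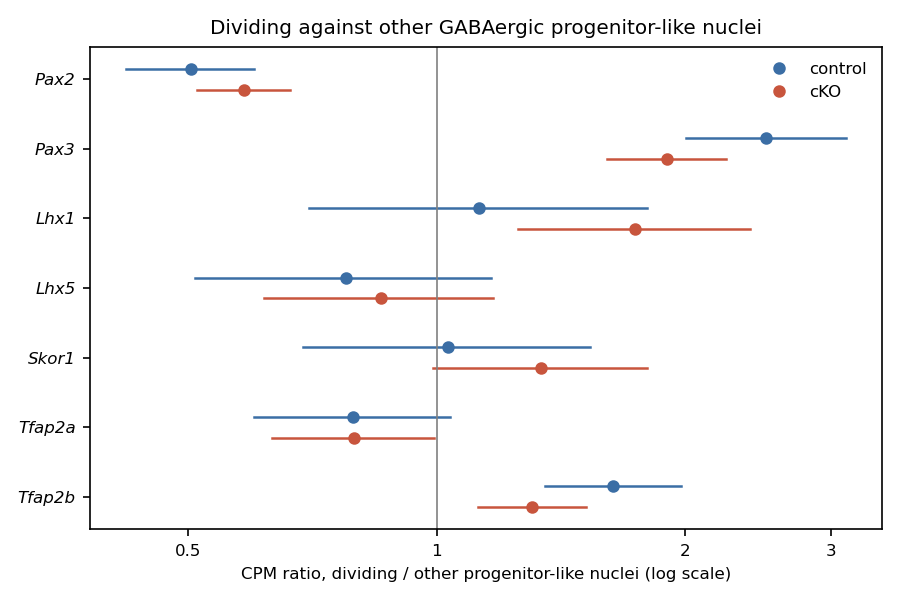
Ratio of the level (CPM) in dividing to that in other GABAergic progenitor-like nuclei (horizontal axis, log scale) for control (blue) and cKO (red). Points are ratios and bars exact 95% counting intervals, and Ptf1a and Skor2 are not drawn. Pax2 is lower in dividing nuclei (748 against 1486 CPM in control), and Pax3 is higher (968 against 387 CPM).

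Purkinje-like nuclei fell mainly into 2 graph clusters, numbered 6 (156 control and 361 cKO nuclei) and 10 (110 and 309), and Tfap2a differed most between them among the members, with its antisense neighbour Gm26688 among the genes available to the clustering. Its level was 138 CPM in cluster 6 against 5.40 CPM in cluster 10 in control (ratio 25.6, 11.5 to 70.4), and 93.9 against 5.37 CPM in cKO (17.5, 10.2 to 32.4). A Tfap2a UMI was seen in 50% and 42.4% of cluster 6 nuclei, but in 4.55% and 3.56% of cluster 10 nuclei. Lhx5 was also higher in cluster 6 (28.6 against 14.4 CPM and 25 against 12.3 CPM). Lhx1 and Skor2 leaned to cluster 10: the cluster 6 to cluster 10 ratio of Lhx1 was 0.743 (0.622 to 0.888) and 0.80 (0.717 to 0.892), and that of Skor2 0.718 (0.600 to 0.858) and 0.759 (0.672 to 0.858). Cluster 6 was led by Car8 and Arhgef33, and cluster 10 by 4930438E09Rik and Cdh9. Clusters were drawn from the same nuclei, so these values describe them and carry no test.

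**Figure D3:**
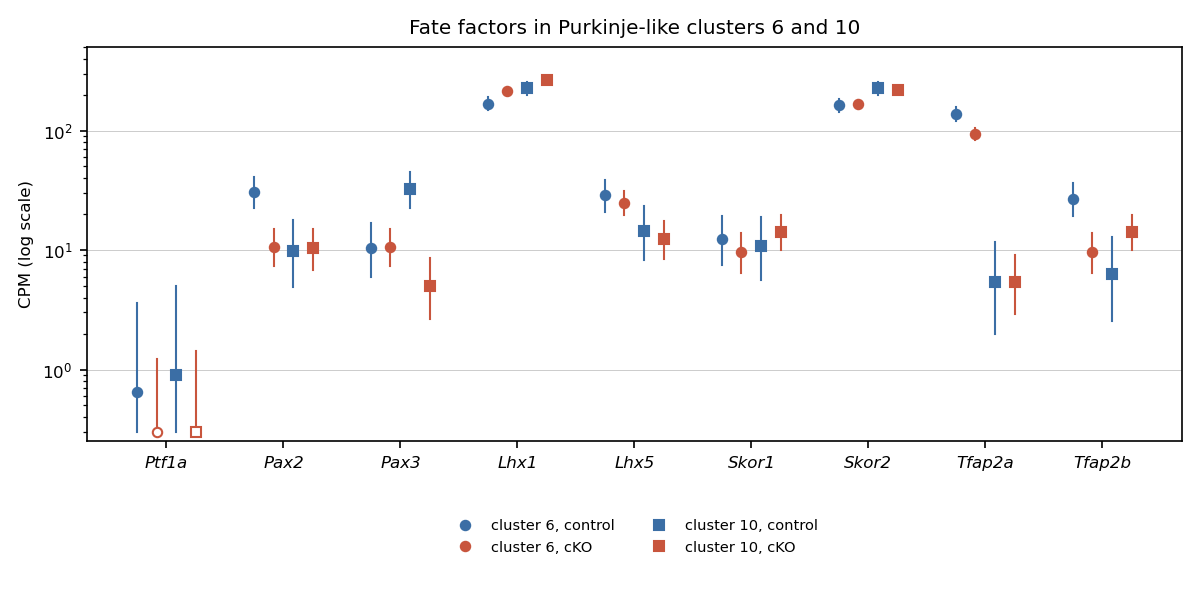
Level of the members (CPM, log scale) in Purkinje-like clusters 6 (circles) and 10 (squares) for control (blue) and cKO (red), with exact 95% counting intervals. Open symbols at the bottom mark 0 UMIs. Tfap2a is at 138 and 93.9 CPM in cluster 6 and at 5.40 and 5.37 CPM in cluster 10.

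Lhx1 and Pax3 also varied over the granule clusters. Lhx1 was 189 and 201 CPM in cluster 8, 159 and 189 CPM in cluster 14, and 131 and 251 CPM in cluster 17, against 16.2 and 22.9 CPM in cluster 0. Pax3 was 152 and 212 CPM in cluster 14 and 213 and 211 CPM in cluster 17, against 3.07 and 11.1 CPM in cluster 0. Clusters 14 and 17 had Gli2, a marker of granule progenitors, among their markers, and cluster 14 was led by Gli2, Knl1, Top2a and Mki67. They held 270 and 241 control nuclei but 71 and 43 cKO nuclei, so a level over the whole granule lineage mixes different nuclei in the 2 libraries.

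**Figure D4:**
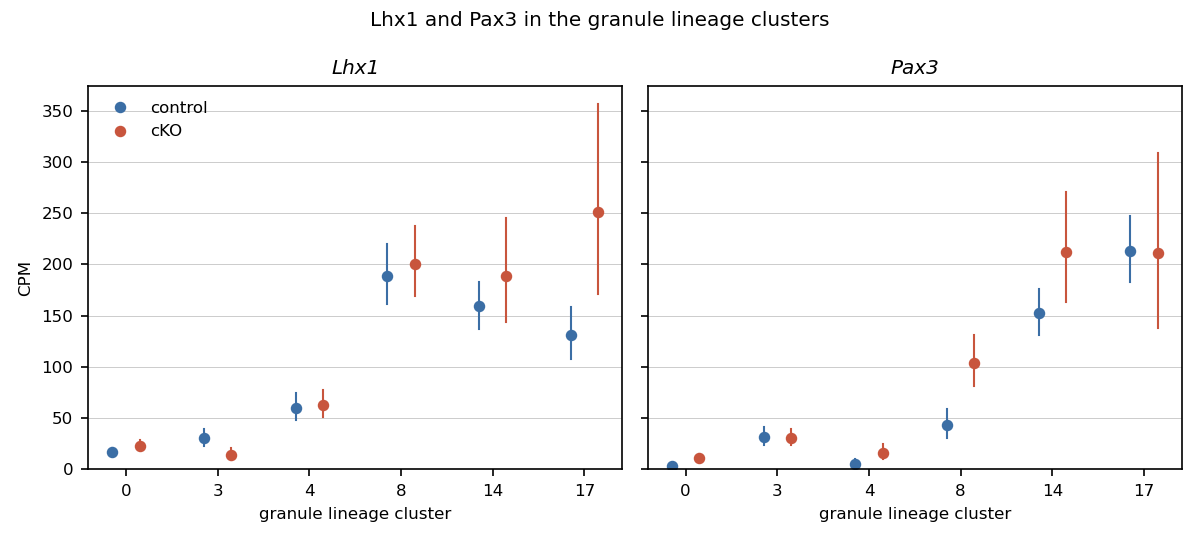
Level of Lhx1 and Pax3 (CPM) in the granule clusters of each library, with exact 95% counting intervals. Lhx1 is at 189 and 201 CPM in cluster 8 and at 16.2 and 22.9 CPM in cluster 0.

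Between the libraries, no member passed the 1.5-fold threshold within the progenitor-like class. Of 7 members with at least 20 UMIs, 0 differed by over 1.5-fold. Over the 9191 genes tested 18.8% did, and 5.64% did so with an interval that left out 1. The 7 members are too few to set a count of 0 apart from these shares. The median log2 ratio of the 7 was −0.03, against −0.01 for all genes. Pax2 was 1.17 times as high in cKO (1.07 to 1.29), and its UMIs were spread over 118 and 281 nuclei. The other 6 lay between 0.908 (Pax3) and 1.12 (Lhx1), with intervals that included 1.

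In interneuron-like nuclei 1 of 7 members differed by over 1.5-fold, lower in cKO, against 13.6% of 12381 genes (4.3% with an interval that left out 1). This was Pax3 (31.5 and 14.5 CPM, ratio 0.461, 0.297 to 0.715). However, 22 of its 46 control UMIs came from 1 nucleus, and without the highest nucleus of each library the ratio was 0.68 (0.39 to 1.21). With each nucleus thinned to 1000 UMIs it was 1.02, and with no doublet removal 0.723 (0.491 to 1.07), neither past the threshold. Both levels were within the interval of the control microglia. Tfap2a was lower in cKO by less than 1.5-fold (0.750, 0.637 to 0.886) and Tfap2b was slightly higher (1.13, 1.03 to 1.24). With classes taken from graph clusters the Tfap2a ratio was 0.960 (0.837 to 1.10).

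In Purkinje-like nuclei 2 of 8 members differed by over 1.5-fold, both lower in cKO, against 12.6% of 14494 genes (5.13% with an interval that left out 1). The members' median log2 ratio was −0.15, and that of all genes −0.02. Pax2 was at 0.617 (0.456 to 0.836), with 20 of its 80 control UMIs in 1 nucleus, and at 0.75 (0.53 to 1.05) without the highest nuclei. Pax3 was at 0.411 (0.284 to 0.593) and at 0.40 (0.27 to 0.61) without them. Neither ratio was alike in both clusters: Pax2 was at 0.348 (0.215 to 0.558) in cluster 6 and 1.05 (0.503 to 2.34) in cluster 10, and Pax3 at 1.02 (0.545 to 2.0) and 0.154 (0.0750 to 0.297). Both genes had their high levels in other classes, and with no doublet removal the ratios were 1.12 and 0.803. The Pax3 level of microglia was 29.6 and 13.9 CPM, from 5 and 6 UMIs, too few to compare the libraries. The part of free RNA in these ratios was not tested. Tfap2a was just inside the threshold at 0.668 (0.563 to 0.795), and its ratio within cluster 6 was 0.68 (0.57 to 0.82). Lhx1 was higher in cKO at 1.24 (1.12 to 1.38), at 1.27 (1.10 to 1.47) within cluster 6 and 1.18 (1.02 to 1.37) within cluster 10. Skor2 was at 1.01 (0.904 to 1.12), so a difference of the size of Lhx1's lay outside its interval.

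**Figure D5:**
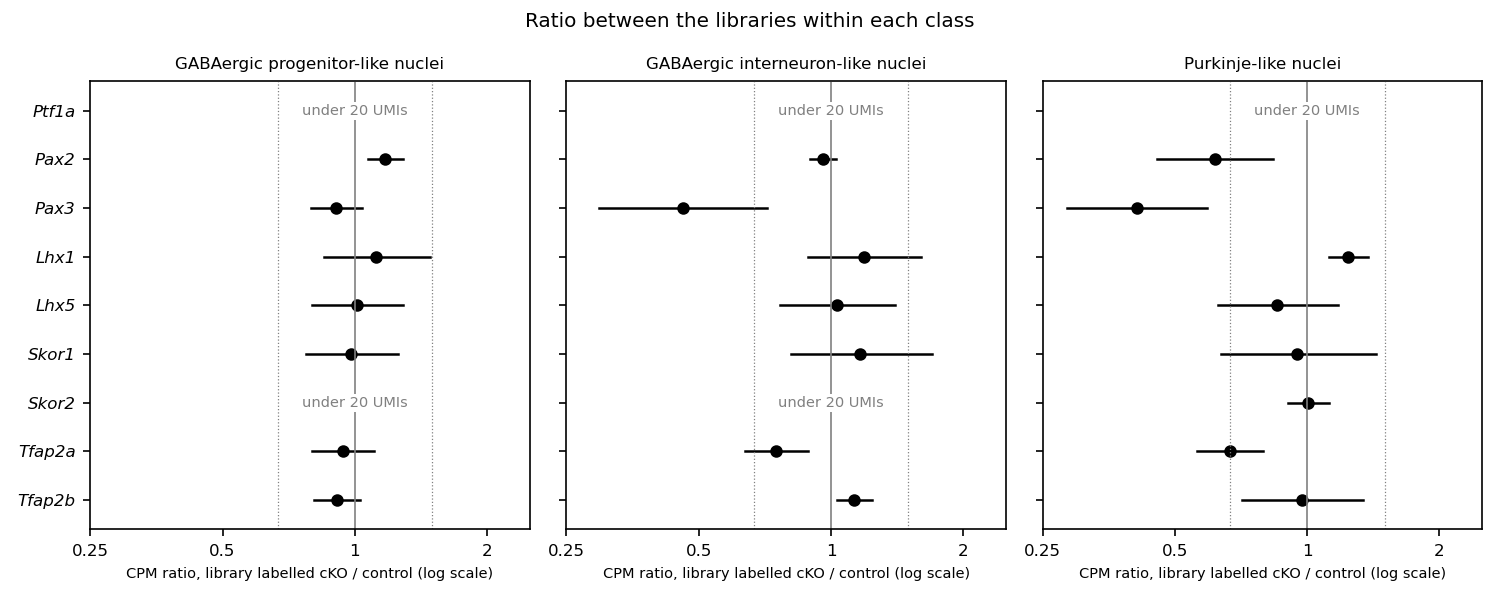
Ratio of the level in the library labelled cKO to that in control (horizontal axis, log scale) for each member within progenitor-like, interneuron-like and Purkinje-like nuclei. Points are ratios, bars exact 95% counting intervals, dotted lines the 1.5-fold thresholds; members with under 20 UMIs are marked. Pax3 lies at 0.461 and 0.411 in interneuron-like and Purkinje-like nuclei, and all 7 progenitor-like points lie within the thresholds.

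Over all kept nuclei 1 of 9 members passed 1.5-fold, Tfap2b at 1.51 (1.43 to 1.60), against 14.8% of 20214 genes (10.1% with an interval that left out 1). The median log2 ratio of the members was 0.36 against −0.02 for all genes. Skor2 was at 1.47 (1.33 to 1.62) and Pax2 at 1.32 (1.26 to 1.39). The classes that hold these genes took larger shares of the cKO library: 2.94% and 4.77% of nuclei for progenitor-like (share ratio 1.63, 1.33 to 2.0), 5.16% and 8.54% for interneuron-like (1.65, 1.42 to 1.93), and 6.11% and 11.1% for Purkinje-like (1.82, 1.59 to 2.10). A larger cKO share was not particular to these classes: the share ratio was 1.66 for glutamatergic neurons of the cerebellar nuclei, 1.66 for microglia and macrophages, 1.63 for the oligodendrocyte lineage and 1.40 for astroglia. The granule lineage took 24.7% and 16.4%. Among nuclei with at least 1000 genes the 3 ratios were 1.42, 1.43 and 1.56. With 1 pooled library per group, genotype and library cannot be told apart in these shares.

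The other 26 genes of the pathway (partners, cofactors, earlier and parallel regulators, and GABAergic enzymes) were read with the same thresholds. In progenitor-like nuclei 14 had at least 20 UMIs, 0 were higher and 1 was lower by over 1.5-fold. That was Ldb1, a LIM-domain cofactor, at 0.665 (0.429 to 1.04), an interval that includes 1. In interneuron-like nuclei 2 of 14 were higher and none lower: the LIM cofactors Ldb2 (2.24, 1.21 to 4.45) and Lmo3 (2.36, 1.31 to 4.55), from 13 and 14 control UMIs. In Purkinje-like nuclei 1 of 16 was higher and 1 lower. Pax5 had 0 control and 20 cKO UMIs in 16 nuclei, and the E-protein Tcf4, a dimer partner of bHLH factors, was at 0.571 (0.511 to 0.637; 217 and 124 CPM). Over all kept nuclei 5 of 22 were higher (Dmbx1, Ldb2, Lmo3, Pax5 and Slc32a1) and 0 lower, and 4 of them, without Dmbx1, had an interval that left out 1. Over all genes the shares past 1.5-fold in either direction were those given above: 18.8%, 13.6% and 12.6% in the 3 classes and 14.8% over all kept nuclei. The enzymes Gad1 and Gad2 and the transporter Slc32a1, which make and load GABA, were expressed in all 3 classes. Gad1 was 687 and 699 CPM in progenitor-like, 808 and 729 CPM in interneuron-like and 127 and 126 CPM in Purkinje-like nuclei. Gad2 was 108 and 147 CPM, 349 and 368 CPM, and 139.7 and 145 CPM in the same order. Slc32a1 was 154 and 192 CPM, 182 and 226 CPM, and 53.1 and 55.9 CPM.

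The genes most alike each member were found from the correlation of log2(CPM + 1) over 22 values, the 11 classes of each library. The nearest to Pax2 were its antisense neighbours Gm20395 (r = 0.965) and 1700039E22Rik (0.919), then Gm14204 (0.896). Lhx1os, which starts 125 bases from Lhx1 on the other strand, was nearest to Lhx1 (0.904) and held 217 and 243 CPM in Purkinje-like nuclei. Pax3 was nearest to Vps37b (0.931) and Sox1ot (0.924), Lhx5 to Gm14204 (0.925) and Slc32a1 (0.898), and Skor1 to Gm20395 (0.891). Skor2 was nearest to Dhx58os (0.912), Arhgef33 (0.906) and Nrk (0.894). Tfap2a was nearest to its antisense neighbour Gm26688 (0.924) and to Hipk2 (0.901), and Tfap2b to Gm20395 (0.890) and 1700039E22Rik (0.885). Among the members, Pax2 and Tfap2b (0.87), Pax2 and Skor1 (0.86), Pax2 and Lhx5 (0.85) and Lhx5 and Skor1 (0.85) were most alike, and Skor2 had −0.21 to 0.54 with the others. The values share libraries and class sizes, so these are descriptions.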

How the data were processed

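Single nuclei were profiled with 10x Chromium 3′ v3.1 chemistry. The deposited values are raw UMI counts per gene and nucleus, which the authors made with Cell Ranger 7.0.1 and bcl2fastq on mm10. Use of strand and of intronic reads is not given in the sources used here, and the counts were not corrected for free RNA. Nuclei over 25% mitochondrial were removed, as were doublets by Scrublet score (scanpy 1.11.5; 0.8% per 1000 barcodes). Libraries were integrated and clustered in Seurat 5.3.0 (30 and 20 dimensions, resolution 0.8) without the members. A class gate needed 3 UMIs of 2 markers, 2-fold over the mean and 1.5-fold over the next class. The gate for progenitors on single nuclei picked 139 nuclei, 97 of them in astroglia clusters, so this class was taken from a cluster. Clusters were named by another rule, which needed 3 markers of a class enriched 2-fold against a median cluster. The progenitor-like cluster had 4 progenitor and 6 interneuron markers enriched, so the larger count did not decide its name. UMIs were summed per class and library as CPM, with exact Poisson, Clopper-Pearson and conditional binomial 95% intervals. Likeness used at least 50 UMIs per gene. Genes named were the 9 members, pathway genes past 1.5-fold with Gad1, Gad2 and Slc32a1, the 3 genes most alike each member, and Tox3; other genes were named after their values were seen. PCR duplicates are collapsed by UMI, but nuclei are not replicates. Members, lists and markers were chosen with earlier results of these data known. The sums, intervals and calls were tested on simulated Poisson counts. These follow the model that the intervals assume, so they cannot show how the intervals hold where UMIs gather in single nuclei. Other gates, classes, filters and scalings were tried as alternatives.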

Additional observations from a re-analysis of the deposited data

Results flagged for a closer look

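Pax2 moved in opposite directions in 2 classes: its level in the library labelled cKO was 1.17 times that of control (1.07 to 1.29) in progenitor-like nuclei, and 0.617 times (0.456 to 0.836) in Purkinje-like nuclei. The difference between the classes was not tested, since each group is 1 library. Of the 80 control UMIs in Purkinje-like nuclei, 20 came from 1 nucleus. Without the highest nucleus of each library the Purkinje-like ratio was 0.75 (0.53 to 1.05), an interval that includes 1. It was 0.348 (0.215 to 0.558) in cluster 6 but 1.05 (0.503 to 2.34) in cluster 10. With no doublet removal the Purkinje-like ratio reversed, as given below, so the opposite directions depended on the processing.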

How the results depend on the processing

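No paired analysis was possible because each group is 1 library. With no replicates, leaving a replicate out was not possible either. The count of progenitor-like members past 1.5-fold was 0, but 3 with the progenitor list on single nuclei and 1 with no minimum of UMIs. For interneuron-like nuclei it was 1, but 2 by graph clusters, 0 with no doublet removal, 0 with nuclei thinned to 1000 UMIs, and 3 with no minimum. For Purkinje-like nuclei it was 2, but 4 by graph clusters, 4 with gate and matching cluster, 0 with no doublet removal, and 1 at a fold of 2. The Purkinje-like share ratio was 1.56 among nuclei with at least 1000 genes. Pax3 in interneuron-like nuclei was at 1.02 after thinning, and Pax2 in Purkinje-like nuclei at 1.12 with no doublet removal, both reversed. Tfap2b in Purkinje-like nuclei was at 0.611 by graph clusters, 0.649 with gate and matching cluster, and 1.37 with no doublet removal. The cause was not tested. The single-nucleus list and the gate with matching cluster were chosen after seeing the data. Of 176 values of single members under the alternatives, 164 stayed within their counting interval, 10 moved beyond it and 2 reversed.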

Other observations

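In interneuron-like cluster 18 (27 control and 65 cKO nuclei), Skor1 was at 84.5 CPM in control against 24.8 CPM in cluster 9 and 14.4 CPM in cluster 11. The cKO values were 38.8, 35.1 and 22.2 CPM in the same order, and cluster 18 held 11 Skor1 UMIs in each library. Tfap2a in cluster 18 was at 276 CPM in control and 138 CPM in cKO (ratio 0.50, 0.31 to 0.81).

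Tfap2b in nuclei that passed the unipolar brush cell list was at 18.7 CPM (10.2 to 31.3) in control and 97.3 CPM (77.7 to 120.3) in cKO. In the unipolar brush cell-like cluster 13 it was at 9.65 CPM (4.17 to 19.0) and 11.3 CPM (5.15 to 21.4), so the high cKO value came from gated nuclei outside that cluster. In all, 26 gated cKO nuclei held a Tfap2b UMI.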
